A study of Mus musculus with 6 samples.

Results

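The aminoacyl-tRNA synthetase genes of the mouse were examined by Ribo-STAMP in primary cortical neurons. The genes were selected by symbol, as protein-coding genes whose names follow the synthetase pattern (an amino acid letter and "ars", with *Eprs*, *Farsa*, *Farsb* and *Tarsl2*), and 38 of the 31053 genes listed in each library matched. Of these, 21 encode cytosolic enzymes and 17 encode mitochondrial enzymes, whose symbols end in 2. *Tarsl2* was placed with the cytosolic genes, and *Gars* and *Kars*, which also encode the mitochondrial forms of their enzymes, were kept with the cytosolic genes.

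Ribo-STAMP fuses rAPOBEC1, a cytidine deaminase that turns C into U in RNA, to a ribosomal protein, so that transcripts near the tagged ribosome acquire edits. The libraries compared here came from neurons of E18 C57BL/6J mouse cortices, all of which received an AAV Tet-On vector at DIV 6, 48 h of doxycycline at 1 µg/ml and collection at DIV 14. Floxuridine was given to all cultures, and a synapsin promoter drove the transactivator, so that the fusion protein was meant for neurons. In 3 libraries rAPOBEC1 was fused to the mouse Rpl10a open reading frame (RPL10A-STAMP) and in 3 to Rpl22 (RPL22-STAMP), both proteins of the large ribosomal subunit. The comparison asks how the choice of tagged protein changes the reading of a gene. The measure is EPR, edits per read, a ratio that was deposited for each gene and library. The number of reads behind a ratio is unknown, so no counting error can be given, and an EPR of 0 can mean no edits or no reads. Edits in neurons without a construct were not analysed here.

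Aminoacyl-tRNA synthetases join each amino acid to its tRNA, the step by which a codon comes to stand for an amino acid. They fall into class I and class II, which differ in the fold of the catalytic domain. Several cytosolic synthetases assemble with scaffold proteins into the multi-synthetase complex, whereas mitochondria use a separate set that is encoded in the nucleus and imported. Mutations of several cytosolic synthetases cause inherited peripheral neuropathy, and mutations of mitochondrial ones cause disorders of the brain and other tissues.

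Genes whose EPR exceeded 0 are referred to as edited. Between 9892 and 11195 genes were edited per library, and 8046 were edited in all 6. Of the neuron markers, 8 of 8 were edited in all 6 libraries. Of the astrocyte markers 3 of 4 were, of the oligodendrocyte markers 1 of 4 (*Mog* and *Mag* were listed at 0 throughout) and of the microglia markers 0 of 4 (*Aif1* and *P2ry12* were listed at 0 throughout). These counts describe edits and not RNA levels, and do not show how many cells of a type were present. In bulk libraries fewer cells of a type, less RNA per cell and cells without the fusion protein cannot be told apart. The samples are labelled as 3 replicates per construct, and the study's text calls them biological in some places and technical in another. The p-values below therefore measure only the spread between these libraries.

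Nearly all cytosolic synthetase genes carried edits in every library, whereas fewer mitochondrial ones did. Among the 21 cytosolic genes, 20 were edited in all 6 libraries, with *Vars* the exception. Among the 17 mitochondrial genes, 8 were edited in all 6 libraries. For comparison, 65.0% of the 12187 protein-coding genes with an edit in any library were edited in all 6. That share leaves out genes without an edit in any library, whereas the 17 mitochondrial genes include 1 such gene, *Sars2*. Of all values, 3 of 126 were 0 among the cytosolic genes (2.38%) and 33 of 102 among the mitochondrial genes (32.4%). The zeros of the mitochondrial genes numbered 5, 5 and 6 in the RPL10A-STAMP libraries and 9, 1 and 7 in the RPL22-STAMP libraries. The RPL22-STAMP library with 1 zero, replicate 2, was also the library with 11195 edited genes, the most of the 6.

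The genes listed at 0 in at least 3 libraries were *Sars2*, *Aars2*, *Cars2*, *Pars2*, *Vars2*, *Ears2*, *Fars2* and the cytosolic *Vars*. *Sars2*, which charges mitochondrial serine tRNA, was listed at 0 in all 6 libraries. *Aars2*, for alanine, and *Cars2*, for cysteine, were edited only in RPL22-STAMP replicate 2, with EPRs of 0.00394 and 0.00465. *Pars2*, for proline, was edited in RPL10A-STAMP replicate 2 (0.0517) and RPL22-STAMP replicate 2 (0.0130), and *Vars2*, for valine, was edited in the same libraries (0.0140 and 0.00685). All edits of these 4 genes were thus in a library with the replicate number 2. *Ears2*, for glutamate, read 0.0144 in RPL10A-STAMP replicate 1 and 0.0146 and 0.0105 in RPL22-STAMP replicates 2 and 3. *Fars2*, for phenylalanine, read 0.0151 and 0.00219 in RPL10A-STAMP replicates 1 and 3 and 0.00396 in RPL22-STAMP replicate 2. *Vars*, the cytosolic valine enzyme, read 0.00478 in RPL10A-STAMP replicate 3 and, for RPL22-STAMP, 0.00633 in replicate 1 and 0.0133 in replicate 2. The 10 genes not edited in all libraries, which include *Yars2* (edited in 4) and *Lars2* (edited in 5), had transcripts of 51.2% to 60.8% GC, against 38.8% to 56.6% for the 28 others. The part of GC content in these zeros was not tested.

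**Figure D1:**
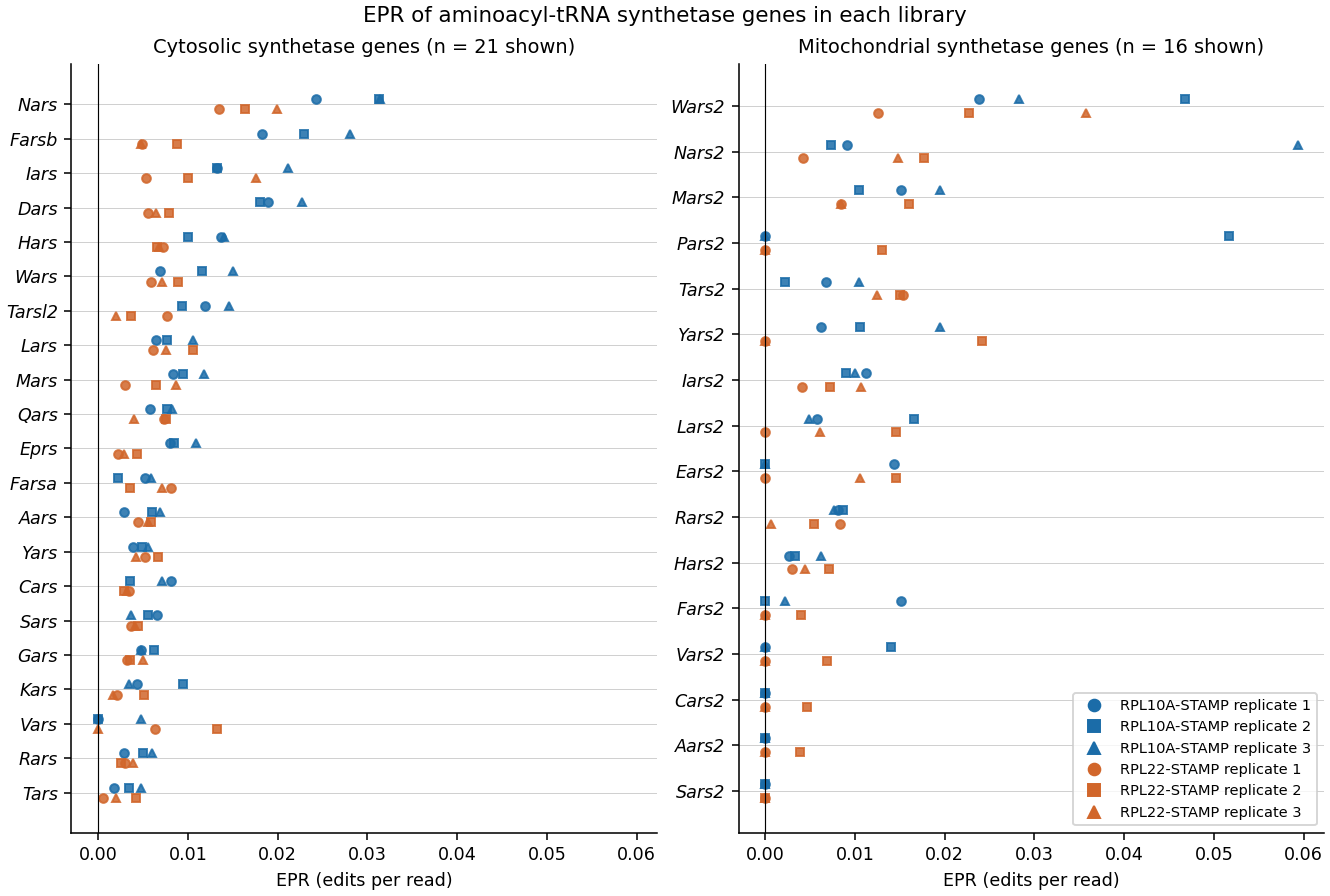
EPR (edits per read, linear axis) of each cytosolic (left) and mitochondrial (right) synthetase gene, 1 point per library, with colour for the construct and shape for the replicate; genes are ordered by mean EPR over the 6 libraries, and 1 gene is not shown. Points at 0 are frequent in the mitochondrial panel and rare in the cytosolic one. *Farsb*, *Dars* and *Eprs* show RPL10A-STAMP points to the right of all their RPL22-STAMP points. So do *Nars*, *Hars*, *Tarsl2* and *Cars*, which were not called between the constructs.

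As a group, synthetase transcripts carried fewer edits per read than the median gene. Over the 28 synthetase genes edited in all 6 libraries, the median EPR was 0.00747, 0.00811 and 0.0102 in the RPL10A-STAMP libraries and 0.00510, 0.00677 and 0.00603 in the RPL22-STAMP libraries. The median of the 8046 genes in the same libraries was 0.0120, 0.0153 and 0.0161, and 0.00907, 0.0129 and 0.0112. The synthetase median was thus 0.525 to 0.635 of the median gene in each library. In all 6 libraries 19 of the 28 genes lay below the median gene, and *Nars* and *Wars2* lay above it. Other genes of the translation machinery also lay low, at 0.449 to 0.578 of the median gene for cytosolic ribosomal protein genes, 0.585 to 0.687 for initiation and elongation factors and 0.506 to 0.804 for mitochondrial ribosomal protein genes. EPR is given per read and not per base. Among the 28 genes, the mean log2 EPR had a Spearman's rho of 0.15 with transcript length and -0.29 with GC content, as a description.

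Levels differed between the synthetase genes. *Wars2*, the mitochondrial tryptophan enzyme, had the highest mean EPR of the 28, with 0.0238, 0.0468 and 0.0282 in the RPL10A-STAMP libraries and 0.0126, 0.0227 and 0.0357 in the RPL22-STAMP libraries. *Nars*, the cytosolic asparagine enzyme, followed with 0.0243, 0.0313 and 0.0314, and 0.0134, 0.0164 and 0.0200. *Nars2*, its mitochondrial counterpart, came next with 0.00910, 0.00730 and 0.0593, and 0.00426, 0.0177 and 0.0148. The libraries of *Nars* kept to a narrow range within each construct, whereas those of *Wars2* overlapped between the constructs. For *Nars2*, RPL10A-STAMP replicate 3 stood apart, and the mean EPR was 0.0187 with it and 0.0106 over the other 5 libraries. The ranges of these 3 genes overlapped one another, so their order lies within the spread between libraries.

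At the other end stood 3 cytosolic enzymes of the 28. *Tars*, for threonine, had the lowest mean, with 0.00180, 0.00344 and 0.00473 in the RPL10A-STAMP libraries and 0.000528, 0.00418 and 0.00201 in the RPL22-STAMP libraries. *Rars*, for arginine, read 0.00292, 0.00501 and 0.00597, and 0.00297, 0.00256 and 0.00384. *Kars*, for lysine, read 0.00431, 0.00941 and 0.00346, and 0.00211, 0.00516 and 0.00167. These 3 also overlapped one another. Each value of *Nars* lay above every value of *Tars*, *Rars* and *Kars*.

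Between the constructs, 4 of the 28 synthetase genes differed, and these were *Farsb*, *Dars* and *Eprs* with higher EPR in RPL10A-STAMP and *Tars2* with higher EPR in RPL22-STAMP. The test was a limma fit of log2(EPR + 0.01) to values scaled so that all libraries had the same median gene, with Benjamini-Hochberg adjustment over 8046 genes. The 4 genes are 14.3% of the 28, and 14.3% of all tested genes passed the same threshold of 0.05, so that synthetase genes were called as often as other genes. In the direction of RPL10A-STAMP 3 were called, where the background was 8.51%, and in the direction of RPL22-STAMP 1 was, where the background was 5.77%. In 8 of the 28 genes the scaled libraries of the constructs did not overlap, 4 in each direction, against 37.1% of all tested genes (20.0% higher in RPL10A-STAMP and 17.1% higher in RPL22-STAMP). The 10 genes listed at 0 in any library were not tested.

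*Farsb* encodes the beta subunit of the cytosolic phenylalanine enzyme and had the lowest adjusted p of the 28 genes. Its EPR was 0.0183, 0.0229 and 0.0281 in the RPL10A-STAMP libraries and 0.00487, 0.00875 and 0.00483 in the RPL22-STAMP libraries. Every RPL10A-STAMP library was higher than every RPL22-STAMP library, and the means were 0.0231 ± 0.00489 and 0.00615 ± 0.00225 (SD, n = 3). The means differed 3.76-fold as deposited and 2.90-fold after scaling. The log2 fold change from limma was 0.83 with a standard error of 0.13 and an adjusted p of 0.0107. The added 0.01 makes such fold changes smaller than the plain ratio where EPR is low. Without RPL10A-STAMP replicate 3 the log2 fold change was 0.79 and the adjusted p 0.0515. Of the exon bases of *Farsb*, 9.47% are shared with *Sgpp2* on the opposite strand, and the strand setting of the counting is not given in the sources used here.

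*Farsa*, the alpha subunit of the same enzyme, read 0.00519, 0.00217 and 0.00587 in the RPL10A-STAMP libraries and 0.00814, 0.00353 and 0.00718 in the RPL22-STAMP libraries. The libraries of the constructs overlapped, with a log2 fold change of -0.32 (standard error 0.20, limma adjusted p = 0.312). The ratio of *Farsb* to *Farsa* EPR was 3.53, 10.6 and 4.78 in the RPL10A-STAMP libraries and 0.598, 2.48 and 0.673 in the RPL22-STAMP libraries. The ratio was thus higher in each RPL10A-STAMP library than in any RPL22-STAMP library, and the difference between the subunits was not tested. The transcript of *Farsb* has 46.3% GC and that of *Farsa* 56.6%.

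*Dars* encodes the cytosolic aspartate enzyme, a member of the multi-synthetase complex. Its EPR was 0.0190, 0.0180 and 0.0227 in the RPL10A-STAMP libraries and 0.00555, 0.00794 and 0.00645 in the RPL22-STAMP libraries. The groups did not overlap, and the means were 0.0199 ± 0.00247 and 0.00665 ± 0.00120 (SD, n = 3), 2.99-fold apart as deposited and 2.31-fold after scaling. The log2 fold change was 0.64 (standard error 0.13, limma adjusted p = 0.0216). Once the dependence on transcript GC content was taken out of every library (called GC trend removed below), it was 0.31 (adjusted p = 0.177), and the transcript of *Dars* has 41.2% GC. The adjusted p was 0.0475 without RPL22-STAMP replicate 1 and passed no longer on leaving out any other library, with 0.0505 (without RPL10A-STAMP replicate 2) to 0.0785 (without RPL10A-STAMP replicate 3).

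*Eprs* encodes a fused enzyme that charges both glutamate and proline tRNAs, also in the complex. Its EPR was 0.00800, 0.00849 and 0.0109 in the RPL10A-STAMP libraries and 0.00217, 0.00436 and 0.00287 in the RPL22-STAMP libraries. The groups did not overlap, and the means were 0.00912 ± 0.00154 and 0.00313 ± 0.00112 (SD, n = 3), 2.91-fold apart as deposited and 2.28-fold after scaling. The log2 fold change was 0.41 (standard error 0.11, limma adjusted p = 0.0468). The call was lost on leaving out any library, with adjusted p from 0.0771 (without RPL22-STAMP replicate 2) to 0.134 (without RPL10A-STAMP replicate 3), and with the GC trend removed (0.103).

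*Tars2* encodes the mitochondrial threonine enzyme and was the called gene with the opposite direction. Its EPR was 0.00677, 0.00219 and 0.0105 in the RPL10A-STAMP libraries and 0.0154, 0.0150 and 0.0125 in the RPL22-STAMP libraries. The RPL22-STAMP libraries lay together above all RPL10A-STAMP libraries, which differed widely among themselves. The means were 0.00649 ± 0.00416 and 0.0143 ± 0.00157 (SD, n = 3), and RPL22-STAMP was 2.20-fold higher as deposited and 2.92-fold higher after scaling. The log2 fold change was -0.78 (standard error 0.21, limma adjusted p = 0.0479). The call was lost without scaling (log2 fold change -0.59, adjusted p = 0.102), with the GC trend removed (-0.52, 0.164) and on leaving out any library, with adjusted p from 0.0790 (without RPL10A-STAMP replicate 3) to 0.117 (without RPL10A-STAMP replicate 2). Its transcript has 55.1% GC.

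The start of the reading frame is given for the 4 called genes and *Farsa*, with every cytosine marked, the kind of base that rAPOBEC1 deaminates. The window is an example of sequence and does not stand for the GC content of the whole transcript. Each line holds the first 30 coding bases, read 5′ to 3′ from GRCm38 on the coding strand of the GENCODE M21 transcript with the longest coding sequence, with cytosines in capitals.
Farsb, chr1:78488813-78488842, minus strand: atgCCgaCtgtCagCgtaaagCgagaCCtg
Farsa, chr8:84857035-84857064, plus strand: atggCggataatCCCgttttggagCtgttg
Dars, chr1:128417188-128417217, minus strand: atgCCCagCaCCaaCgCCagCCgtaagggt
Eprs, chr1:185363198-185363227, plus strand: atggCggCgCtgtgCCtCaCggtgaaCgCC
Tars2, chr3:95754809-95754838, minus strand: atgggtCtCtgtCtgaggtggCgCCggCtt
The windows hold 8, 5, 11, 10 and 7 cytosines in this order, and the whole transcripts hold 460, 485, 402, 1050 and 633. A ratio per gene does not say which cytosines were edited.

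**Figure D2:**
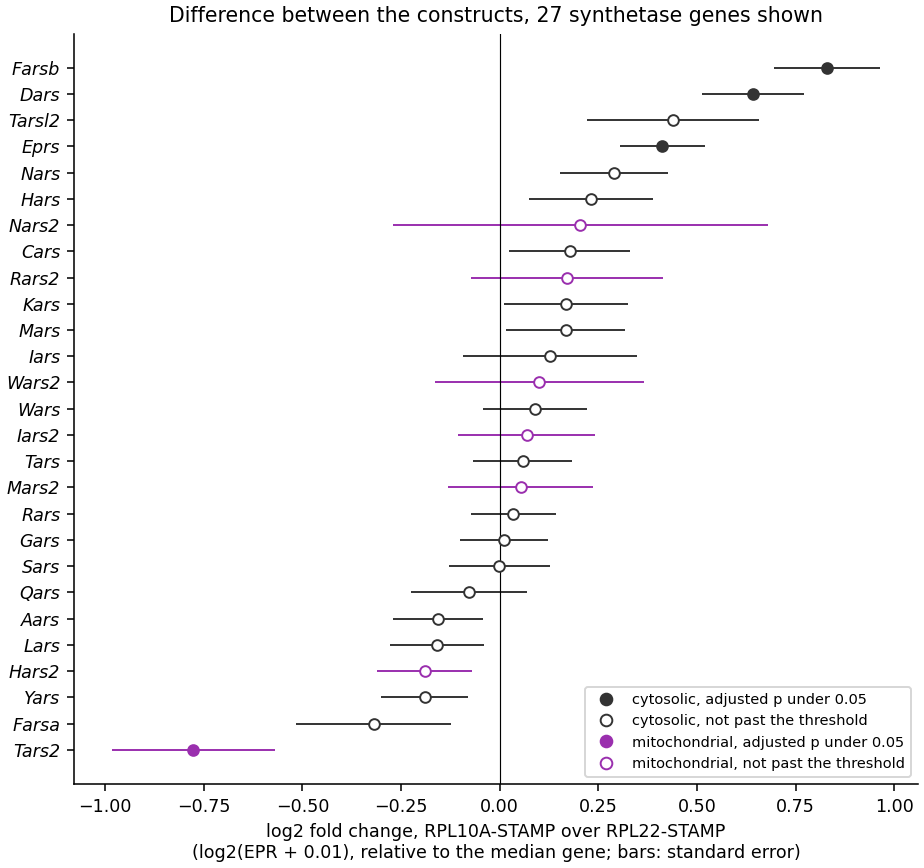
log2 fold change of EPR (RPL10A-STAMP over RPL22-STAMP, on log2(EPR + 0.01) after scaling to each library's median gene) for the synthetase genes edited in all 6 libraries (1 of the 28 is not shown); points are limma estimates, bars their standard errors, filled points have an adjusted p under 0.05. The filled points are *Farsb*, *Dars* and *Eprs*, to the right of 0, and *Tars2*, at -0.78, and the open points run from -0.32 (*Farsa*) to 0.44 (*Tarsl2*).

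Most of the other synthetase genes lay near 0 on the log2(EPR + 0.01) scale, where the added 0.01 shrinks fold changes at low EPR. The median log2 fold change was 0.08 over the 28 genes (19 positive and 9 negative), against -0.01 over all tested genes. Without scaling between the libraries the median of all genes moved from -0.01 to 0.18, the share of all calls that were higher in RPL10A-STAMP rose from 59.6% to 88.1%, and the synthetase calls were 3 of 3 in that direction. The uncalled genes beyond 0.25 in size were *Tarsl2*, a second cytosolic threonine enzyme (0.44, limma adjusted p = 0.222), *Nars* (0.29, 0.201) and *Farsa*. *Nars* did not overlap between the constructs after scaling, and neither did *Lars*, *Aars* and *Yars*, which were higher in RPL22-STAMP with log2 fold changes of -0.16, -0.16 and -0.19 and adjusted p of 0.412, 0.390 and 0.283. Of the exon bases of *Aars*, 14.3% are shared with *Exosc6* on the same strand.

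The genes were also read by their roles, for which the share of 14.3% called over all tested genes is the background. The differences between these groups were not tested. All 8 synthetases of the multi-synthetase complex were tested, with a median log2 fold change of 0.15 and 2 called (*Eprs* and *Dars*, 25.0%). Of the 12 tested cytosolic enzymes outside the complex 1 was called (*Farsb*, 8.33%), with a median of 0.07. Among class II enzymes 3 of 15 were called (*Farsb*, *Dars* and *Tars2*) and among class I enzymes 0 of 12 by limma (20.0% and 0%, beside the 14.3% of all tested genes). In class I, 0 had an unadjusted limma p under 0.05 and 0 were called without the variance trend. An unadjusted limma p under 0.05 was found for 4 of the 28 synthetase genes and for 2486 of all 8046 tested genes. *Eprs* joins a catalytic domain of each class and was counted in neither.

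A chosen list of 6 genes linked to inherited neuropathy, which need not be complete, held *Aars*, *Gars*, *Hars*, *Mars*, *Wars* and *Yars*. All 6 were tested. By limma 0 of these 6 genes were called, where 14.3% of all tested genes were, and 0 were called without the variance trend. An unadjusted limma p under 0.05 was found for 0 of them, beside 2486 of all 8046 tested genes. With 6 genes such a count says little. The median log2 fold change of the 6 genes was 0.05, with *Hars* highest at 0.23 and *Yars* lowest at -0.19. In all 6 libraries 5 of the 6 lay below the median gene.

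Genes that work beside the synthetases were taken from 5 lists of 22 genes in all. These were the scaffold proteins of the complex (2 of 3 tested), trans-editing and peptidyl-tRNA enzymes that remove misplaced amino acids or free tRNA (3 of 7), the mitochondrial amidotransferase and formyltransferase genes (2 of 4), selenocysteine factors (1 of 5) and tRNA exporters (2 of 3). By limma 0 of the 10 tested genes were called (14.3% of all tested genes were), and 0 were called without the variance trend. An unadjusted limma p under 0.05 was found for 1 of the 10, beside 2486 of all 8046 tested genes. The log2 fold changes of the 10 partner genes ran from -0.62 to 0.27 with a median of -0.05.

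Among other genes of the translation machinery, 3 of 73 tested cytosolic ribosomal protein genes, 6 of 54 initiation and elongation factors and 2 of 53 mitochondrial ribosomal protein genes were called (4.11%, 11.1% and 3.77%, beside 14.3% of all tested genes), with median log2 fold changes of -0.01, 0.01 and -0.11.

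The cytosolic and the mitochondrial enzymes were then compared within each library. The median EPR of the 20 cytosolic genes edited throughout was 0.00673, 0.00811 and 0.00937 in the RPL10A-STAMP libraries and 0.00505, 0.00617 and 0.00493 in the RPL22-STAMP libraries. That of the 8 mitochondrial genes was 0.00859, 0.00801 and 0.0102, and 0.00668, 0.0111 and 0.00996. The mitochondrial median was higher in 5 of the 6 libraries, and slightly below the cytosolic one in RPL10A-STAMP replicate 2. On the log2(EPR + 0.01) scale the cytosolic median minus the mitochondrial median was -0.16, 0.0078 and -0.06 in the RPL10A-STAMP libraries (mean -0.07 ± 0.08, SD, n = 3) and -0.17, -0.35 and -0.44 in the RPL22-STAMP libraries (mean -0.32 ± 0.14, SD, n = 3). The 8 mitochondrial genes are those that were edited in every library. With all 38 genes and their zeros the mean difference turned positive, at 0.07 ± 0.07 and 0.25 ± 0.46. The RPL22-STAMP values were 0.78, -0.06 and 0.04, so that replicate 2 stayed below 0. In RPL22-STAMP replicate 1, 9 of the 17 mitochondrial genes were listed at 0, so the EPR median of that class was 0. With the GC trend removed the difference was 0.17 ± 0.11 for the RPL10A-STAMP libraries and -0.29 ± 0.20 for the others. With *Tarsl2* read as mitochondrial by its final 2, the difference was -0.15 ± 0.07 and -0.25 ± 0.17, and below 0 in all 6 libraries. With class means in place of medians it was -0.13 ± 0.14 and -0.35 ± 0.08, again below 0 in all 6. The order of the classes therefore depended on which genes were kept and, for RPL10A-STAMP, on the treatment of GC content, and no test was run on it.

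The transcripts of the classes were described over the tested and over all members. The median GC content was 50.3% for the 20 tested cytosolic and 46.4% for the 8 tested mitochondrial enzymes, beside 48.9% for all tested genes. Over all 21 and 17 members the order was the opposite, with 50.4% and 51.7%. The median 3′ UTR was 268.5 and 1742 bases over the tested genes, and 256 and 926 bases over all members. The median coding lengths were 2073 and 1746 bases over the tested genes. Between the constructs, the median log2 fold change was 0.11 for the 20 cytosolic genes and 0.06 for the 8 mitochondrial genes. Of these, 3 cytosolic genes (15.0%) and 1 mitochondrial gene (12.5%) were called, both near the 14.3% of all tested genes. The mitochondrial median log2 fold change was -0.14 with the GC trend removed and -0.08 with the length trend removed. It was also below 0 without RPL10A-STAMP replicate 1 (-0.03), RPL10A-STAMP replicate 3 (-0.14), RPL22-STAMP replicate 1 (-0.06) or RPL22-STAMP replicate 3 (-0.06). Without RPL22-STAMP replicate 1 the cytosolic median was 0.06, and without RPL10A-STAMP replicate 2 it was 0.07.

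Enzymes for the same amino acid were set side by side in 19 pairs of a cytosolic and a mitochondrial gene, which share genes where 1 enzyme has several counterparts. Both genes were edited in all 6 libraries in 9 pairs. The cytosolic gene was higher in all 6 libraries in 1 of them, *Iars* over *Iars2* for isoleucine, with a mean difference of 0.30 on the log2(EPR + 0.01) scale. Of the coding sequence of *Iars*, 59.0% has a near-exact copy on chromosome 1, so its reads could be split. Of the exon bases of *Iars2*, 24.2% are shared with other genes, all on the opposite strand. The mitochondrial gene was higher in all 6 libraries in 1 pair, *Wars2* over *Wars* for tryptophan. The other 7 pairs were mixed.

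Among the 9 pairs with both genes edited throughout, the largest difference towards the mitochondrial gene was that of tryptophan. *Wars* read 0.00694, 0.0116 and 0.0150 in the RPL10A-STAMP libraries and 0.00587, 0.00890 and 0.00714 in the RPL22-STAMP libraries, below *Wars2* in each library. The mean log2 difference was -0.96 over all libraries, -0.96 ± 0.38 (SD, n = 3) for RPL10A-STAMP and -0.95 ± 0.46 (SD, n = 3) for RPL22-STAMP. Among the same 9 pairs, the largest difference towards the cytosolic gene was that of histidine, with a mean of 0.43. Pairs with zeros in the mitochondrial gene reached up to 0.82 (*Farsb* minus *Fars2*). *Hars* read 0.0137, 0.00998 and 0.0140, and 0.00719, 0.00653 and 0.00675, while *Hars2* read 0.00267, 0.00337 and 0.00620, and 0.00304, 0.00706 and 0.00449. *Hars* was higher in 5 of 6 libraries. The exons of *Hars* and *Hars2* overlap on opposite strands, over 7.97% of the exon bases of *Hars* and 4.56% of those of *Hars2*.

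A pair for threonine looked different with each construct. *Tars* minus *Tars2* was -0.27 ± 0.34 for the RPL10A-STAMP libraries and -1.11 ± 0.39 for the others (log2 difference, mean ± SD, n = 3). This difference contains the called gene *Tars2*, and the change between the constructs was not tested.

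**Figure D3:**
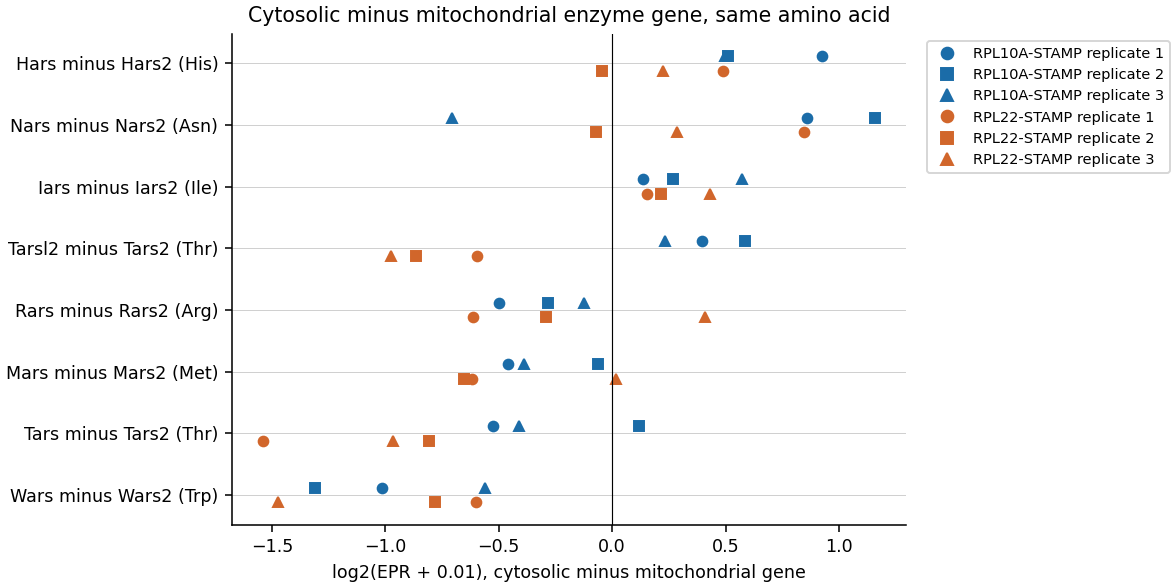
Difference in log2(EPR + 0.01) between the cytosolic and the mitochondrial gene for the same amino acid, for the pairs with both genes edited in all 6 libraries (1 of the 9 is not shown), 1 point per library, with colour for the construct and shape for the replicate. Points of *Iars* minus *Iars2* all lie above 0 and those of *Wars* minus *Wars2* all below 0, while those of *Tarsl2* minus *Tars2* separate by construct.

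Transcript composition moved with the difference between the constructs. Across the 28 genes, the log2 fold change had a Spearman's rho of -0.39 with transcript GC content, and -0.51 across the 20 cytosolic genes, which share libraries and are no independent replicates. Across all 8039 tested genes with a transcript the rho was -0.467, so the relation was not particular to synthetases. Among the 14 synthetase genes of lower GC content (38.8% to 47.2%) the median log2 fold change was 0.14, with 12 positive, 2 negative and 3 called. Among the 14 of higher GC content (47.7% to 56.6%) it was 0.01, with 7 positive, 7 negative and 1 called. Over all tested genes of any GC content 14.3% were called, and the share of all genes within these ranges was not computed. *Farsb*, *Dars* and *Eprs* belong to the first and *Tars2* to the second. The rho with transcript length was -0.07 across the 28 genes and 0.18 across all genes. With the GC trend removed from each library *Farsb* was the synthetase gene still called (log2 fold change 0.72, limma adjusted p = 0.0229).

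**Figure D4:**
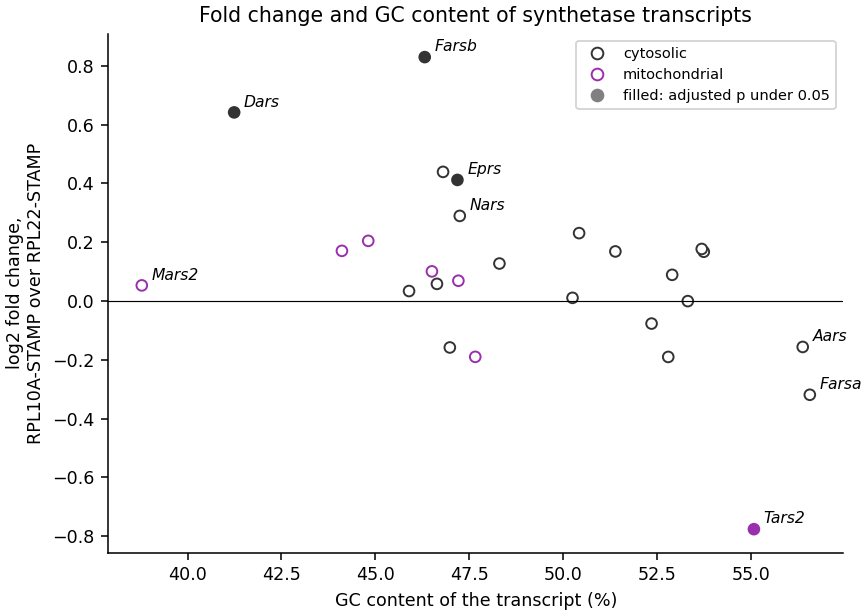
log2 fold change of EPR (RPL10A-STAMP over RPL22-STAMP) against the GC content of the transcript in percent for the synthetase genes edited in all 6 libraries (1 of the 28 is not shown); filled points have a limma adjusted p under 0.05. *Farsb*, *Dars* and *Eprs* lie above 0 at 41.2% to 47.2% GC, and *Tars2* lies below 0 at 55.1% GC.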

How the data were processed

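The authors made single-end TruSeq Stranded mRNA libraries. Reads were trimmed (cutadapt 1.18) and mapped by STAR 2.5.2b to mm10, where a read could keep several locations. SAILOR called the edits and featureCounts 1.5.3 gave the reads per gene. The gene annotation and the strand setting are not given in the sources used here. For each library the authors deposited 1 ratio per gene, EPR, without normalization between libraries. Counts were not used here, so the depth per gene is unknown, and the test for counts that had been foreseen was replaced by limma.

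Gene identifiers were matched to GENCODE mouse release 21 (31011 found, 42 not). Libraries were scaled to a common median, the geometric mean of the library medians taken over genes edited throughout. The model (limma 3.58.1, R 4.3.3) used log2(EPR + 0.01), a variance trend and no replicate block. Adjusted p-values are Benjamini-Hochberg values over 8046 genes, with a threshold of 0.05. In 10 simulations with 200 changed genes, 73.5% were recovered (89.6% of those with a log2 fold change of 2), and 5.49% of calls were unchanged genes. The simulated noise was independent between libraries. The changes put in were larger than any synthetase fold change found, the largest of which was 0.83. The rates therefore do not apply to changes as small as those of the synthetase genes. Library medians, class medians and correlations across genes were described without a test.

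For GC content and lengths, each gene was represented by its transcript of longest coding sequence. Trends were removed by natural splines (4 degrees of freedom). Copies were searched in GRCm38 with BLAST 2.17.0 as exact runs of at least 50 bases within matches of at least 95% identity, and were found for 1 of the 38 genes. Exon bases were shared with another gene on either strand in 13 of 38 genes, over 10% in 4. Tables and plots were made in Python 3.11.15 (pandas 2.3.3, numpy 2.4.6, matplotlib 3.10.9, scipy 1.17.1).

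The members and gene lists were chosen with earlier results of these data known. Members could be named, except 1 gene that is counted but not reported here by name or in the plots. Values in each library were given for called genes, the 3 highest and 3 lowest means among genes edited throughout, the pairs with the largest difference in either direction and genes at 0 in at least 3 libraries. Partner genes were named only where called. Alternatives covered the filter, the pseudocount, the scaling, the variance trend, the replicate block, GC and length trends, the membership of the classes and each library left out.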

Additional observations from a re-analysis of the deposited data

Results flagged for a closer look

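The pair of *Tarsl2*, a cytosolic threonine enzyme, and *Tars2*, the mitochondrial one, pointed in opposite directions with the constructs. On the log2(EPR + 0.01) scale, *Tarsl2* minus *Tars2* was 0.40, 0.58 and 0.23 in the RPL10A-STAMP libraries and -0.60, -0.86 and -0.97 in the RPL22-STAMP libraries. The means were 0.40 and -0.81, a difference of 1.22, and every library of one construct lay on the opposite side of 0 from every library of the other. This difference was not tested. *Tars2* was itself called between the constructs, and *Tarsl2* was not (limma adjusted p = 0.222). The transcript of *Tarsl2* has 46.8% GC and that of *Tars2* 55.1%. With the GC trend removed, the log2 fold change of *Tarsl2* moved from 0.44 to 0.35. That of *Tars2* moved from -0.78 to -0.52, and its call was lost (limma adjusted p = 0.164). The part of GC content in the difference between the 2 genes was not tested. EPR values of *Tarsl2* were 0.0120, 0.00936 and 0.0146 in the RPL10A-STAMP libraries and 0.00771, 0.00363 and 0.00196 in the RPL22-STAMP libraries.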

How the results depend on the processing

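Beside the 4 synthetase genes called, 2 of 33 were called with genes edited in at least 3 libraries, 1 of 37 with any edited gene, 2 with a pseudocount of 0.001, 1 with the replicate block, 1 with the GC trend removed, 2 with the length trend removed, 0 with the GC trend removed and the replicate block (5 at an unadjusted p under 0.05), and 0 to 2 when 1 library was left out (0 without RPL10A-STAMP replicate 3, where 4 had an unadjusted p under 0.05). Over all genes limma called 1149 of 8046. With genes edited in at least 3 libraries it called 754 of 10909, and with any edited gene 569 of 12811. With a pseudocount of 0.001 it called 1090 of 8046, and with the length trend removed 1129 of 8039. In these last 2 settings fewer synthetase genes were called, while the calls over all genes changed little. The calls over all genes were 603 with the block, 663 with the GC trend removed and 227 with both. They were 373 to 874 with 1 library left out. Deviations of same-numbered libraries of the constructs correlated at 0.044, 0.046 and -0.0055. These values were taken after scaling, which removes a shift shared by a whole library. They therefore do not settle whether the replicate numbers pair the libraries. All 4 genes kept their direction in the 17 alternatives, several of which could not change it. The filter, the variance trend and the replicate block leave the estimate as it was. Scaled groups that do not overlap keep their direction when 1 library is left out. *Farsb* was past the threshold in 15 of them (adjusted p 0.00917 to 0.0751), *Dars* in 8 (0.0171 to 0.246), *Eprs* in 3 (0.0370 to 0.184) and *Tars2* in 3 (0.0474 to 0.171). The median log2 fold change of the cytosolic genes was 0.27 with a pseudocount of 0.001, 0.019 with 0.1, 0.27 without scaling, 0.21 with the GC trend removed, with or without the replicate block, and 0.057 to 0.12 with 1 library left out. That of the mitochondrial genes was 0.24 without scaling, -0.14 with the GC trend removed, with or without the block, -0.083 with the length trend removed and -0.14 to 0.029 with 1 library left out. The cytosolic minus mitochondrial difference was 0.068 with zeros included and 0.17 with the GC trend removed for RPL10A-STAMP, and 0.25 with zeros included, -0.63 with a pseudocount of 0.001 and -0.056 with 0.1 for RPL22-STAMP. With 1 library left out it was -0.11 to -0.02 and -0.40 to -0.26. The causes were not tested. Over the 17 alternatives, the 4 called genes kept the call in 29 of 68 fits and lost it in 39. Of the uncalled genes, 3 (*Farsa*, *Nars* and *Tarsl2*) stayed uncalled in all 51 fits. Directions reversed in 0 of these fits, several of which could not reverse them. Unknown read numbers limit what genes of low EPR can show.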
